A study of Sus scrofa with 10 samples.

Results

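Ribosomal protein genes of the cytosol and of the mitochondrion were followed in swine aortic valve leaflets. A gene was taken as a member when the array annotation gave its probe set exactly 1 symbol and that symbol was RPL, RPS, MRPL or MRPS followed by a digit, RPLP followed by a digit, or RPSA, with the RPS6K kinase genes left out. Each gene was represented by its brightest probe set. This gave 122 members among 6765 genes, 64 in the cytosolic class and 58 in the mitochondrial class.

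RNA came from female swine on a standard chow diet, and was measured on Affymetrix GeneChip Porcine Genome microarrays. The 3 groups were juvenile wild type (WT; Rapacz Wisconsin Miniature Swine, given in the labels as RFH -/-, 3 months old, 3 arrays), juvenile RFH (Rapacz Familial Hypercholesterolemic breed, 3 months old, 3 arrays) and adult RFH (the same breed, 2 years old, 4 arrays). Adult RFH was compared with juvenile RFH, and juvenile RFH with juvenile WT. There was no adult WT group, so age within RFH cannot be separated from age in general, and WT and RFH also differ in the breed name given. The labels do not say that every array came from a separate animal, so p-values measure the spread between these samples. Nor do they say whether WT and RFH arrays were processed together. In the juvenile comparison a difference in processing therefore cannot be told apart from one of breed. Array controls given below also separated adult from juvenile RFH, so there processing cannot be told apart from age.

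Ribosomes translate messenger RNA into protein. The cytosolic ribosome, built from a large subunit (RPL proteins and the stalk proteins RPLP0, RPLP1 and RPLP2) and a small subunit (RPS proteins and RPSA), makes almost all cell proteins, and its protein genes are among the most strongly and evenly expressed in animal cells. The mitochondrial ribosome, whose proteins (MRPL for the large subunit, MRPS for the small) are encoded in the nucleus and imported, makes the few respiratory chain subunits encoded by mitochondrial DNA.

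All values are log2 array signals as deposited, so a difference of 1 is a doubling. A member was called when its adjusted p was under 0.05 in limma, with Benjamini-Hochberg adjustment over all 23999 probe sets. The levels of different probe sets depend on their probes and are not compared as RNA amounts. Median signals of the 10 arrays lay between 6.96 and 7.03. Of 6 valve interstitial markers, VIM, DCN, LUM and POSTN were bright in every group (group means from 12.76 to 14.45), COL1A2 ran from 8.58 to 9.42 and COL3A1 from 6.66 to 7.34, and 3 of the 4 measured T and B cell markers were below 7 on every array. One array stood apart: the mean of 7 measured cardiac muscle markers was 9.52 in juvenile RFH replicate 2, against 5.10 to 5.79 on the other 9 arrays. The highest of these 9 was juvenile RFH replicate 3. Results of the juvenile comparison are therefore also given without replicate 2. In whole leaflets, a change in the share of a cell type cannot be told apart from a change in RNA per cell.

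The cytosolic probe sets gave some of the brightest signals on the array. Their mean over the 10 arrays ran from 4.67 (RPS15A) to 14.92 (RPS18, a small-subunit protein), with a median of 13.87 against 8.51 for all genes. Of the 64, 56 were brighter than 12, and 51 stood among the 100 brightest genes. RPS18 lay at 14.93, 14.91 and 14.94 in juvenile WT, at 14.87, 14.93 and 14.94 in juvenile RFH, and at 14.94, 14.96, 14.92 and 14.86 in adult RFH. The 3 groups overlapped. RPS18 was itself the brightest of all genes. The highest signal on each array ranged from 14.86 to 14.96, and both ends of that range match RPS18 values. Whether differences are compressed so near the top of the scale was not tested. Only 3 cytosolic members were dimmer than 7: RPS15A, RPL30 (5.33) and RPL26 (6.09). RPL30, a large-subunit protein, also had one of the widest spreads in the class, from 4.81 to 6.12 within juvenile RFH. The mitochondrial class spanned 6.06 (MRPS23) to 11.03 (MRPL53), and none of its 58 members was among the 100 brightest genes.

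Signals of cytosolic members spread less between replicates than those of mitochondrial members. The median SD within groups was 0.083 for cytosolic members, 0.150 for mitochondrial members and 0.162 for all genes. Most cytosolic probe sets lie near the top of the scale, and whether that narrows their spread was not tested. In both classes and over all genes the arrays of adult RFH spread most: the cytosolic median SD was 0.099 there against 0.060 in juvenile RFH and 0.053 in juvenile WT, and the mitochondrial one was 0.199 against 0.098 and 0.062.

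The mean over each class in each array showed the cytosolic class nearly level across groups and the mitochondrial class lower in juvenile WT than in both RFH groups. Cytosolic class means were 13.12, 13.19 and 13.19 in juvenile WT, 13.14, 13.20 and 13.24 in juvenile RFH, and 13.32, 13.20, 13.14 and 13.16 in adult RFH. Every pair of groups compared overlapped. Mitochondrial class means were 8.67, 8.73 and 8.73 in juvenile WT, 8.81, 8.97 and 8.94 in juvenile RFH, and 9.11, 9.04, 8.79 and 8.82 in adult RFH. All 3 juvenile RFH arrays lay above all 3 juvenile WT arrays, while adult RFH spanned the juvenile RFH range. The cytosolic minus mitochondrial difference was 4.46 ± 0.01 (SD, n = 3) in juvenile WT, 4.29 ± 0.05 (n = 3) in juvenile RFH and 4.27 ± 0.09 (n = 4) in adult RFH. Juvenile WT and juvenile RFH did not overlap in that difference, and juvenile and adult RFH did. These are averages over chosen genes and were given no test.

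**Figure D1:**
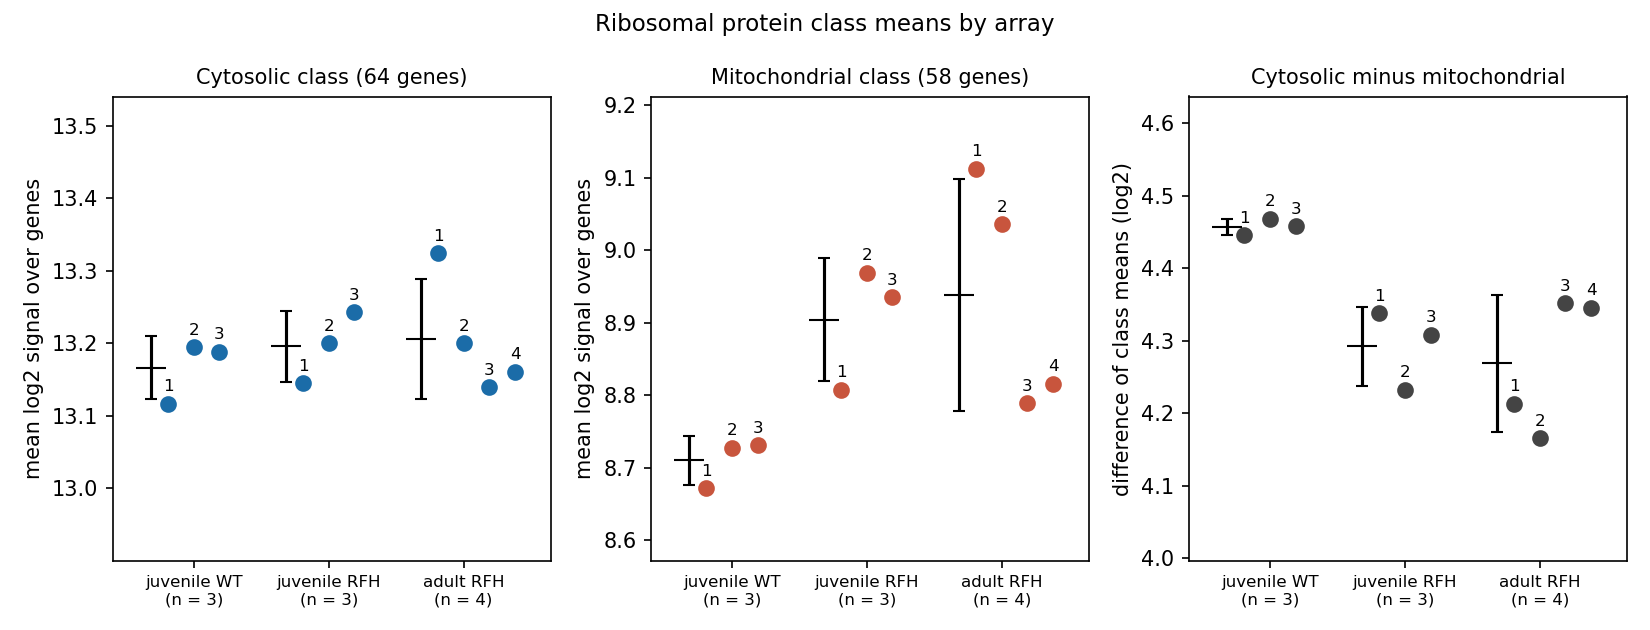
Mean log2 signal over the 64 cytosolic genes, over the 58 mitochondrial genes, and the difference of the means, for every array of the 3 groups; points are arrays with their replicate number, and the bar shows the group mean and SD. The mitochondrial means of juvenile WT (8.67 to 8.73) lie below those of juvenile RFH (8.81 to 8.97), and the adult RFH arrays fall into a higher and a lower pair.

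Within adult RFH the mitochondrial class parted replicates 1 and 2 from replicates 3 and 4. Of the 58 mitochondrial members, 52 and 47 were above their own adult mean in replicates 1 and 2, against 10 and 9 in replicates 3 and 4. Over all genes these shares were 57.5%, 54.0%, 42.7% and 45.6%. Of the 64 cytosolic members, 60 were above their adult mean in replicate 1, and 25, 9 and 8 in replicates 2 to 4. Several list means parted the same pairs, with replicates 1 and 2 higher than 3 and 4: macrophage markers (11.11 and 11.31 against 10.63 and 10.54), endothelial markers (9.79 and 9.71 against 8.71 and 9.52), T and B cell markers (6.05 and 6.55 against 5.77 and 5.65), adipocyte markers (7.06 and 6.49 against 6.07 and 6.03) and oxidative phosphorylation subunits (11.11 and 10.90 against 10.72 and 10.73). Interstitial markers parted them the other way (11.66 and 11.45 against 11.74 and 11.87), as did myofibroblast and smooth muscle markers (10.80 and 10.29 against 11.31 and 10.86). The adipocyte mean rests on ADIPOQ, FABP4 and LEP, whose group means are given with the adult comparison. The part of these markers in the class means was not tested.

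Adult against juvenile RFH leaflets asked how the hypercholesterolaemic valve differs with age. Over all genes, 19.3% were called in this comparison (11.4% up, 7.85% down). Of the 64 cytosolic members, RPL7L1 rose, RPL37 fell and 62 were not called, a share of 3.12%. The median cytosolic change was 0.01 and the median over all genes 0.02. Of the 58 mitochondrial members, 4 rose (MRPL28, MRPS7, MRPL4 and MRPL24), 3 fell (MRPL10, MRPL16 and MRPL36) and 51 were not called, a share of 12.1%, with a median change of 0.03. Among genes brighter than the median gene, where nearly all cytosolic members lie, 22.7% were called. At an unadjusted p under 0.05 there were 2 cytosolic and 15 mitochondrial members, against 34.5% of all genes. The groups did not overlap in 6 cytosolic members (4 up, 2 down) and in 13 mitochondrial members (7 up, 6 down), against 29.9% of all genes.

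Several marker lists differed between the same groups. The macrophage marker mean (5 of 6 listed genes measured, none below 7 on every array) was 10.54 to 11.31 in adult RFH and 10.04 to 10.05 in juvenile RFH, and the adipocyte mean (3 of 5 measured, 1 below 7 on every array) was 6.03 to 7.06 against 5.09 to 5.19. The valve interstitial mean (all 6 measured) was lower in adult RFH, 11.45 to 11.87 against 12.06 to 12.14, as was the erythrocyte mean (3 of 4 measured), 6.28 to 7.24 against 7.56 to 8.48. None of these 4 list means overlapped between the groups, and their part in the member results was not tested.

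**Figure D2:**
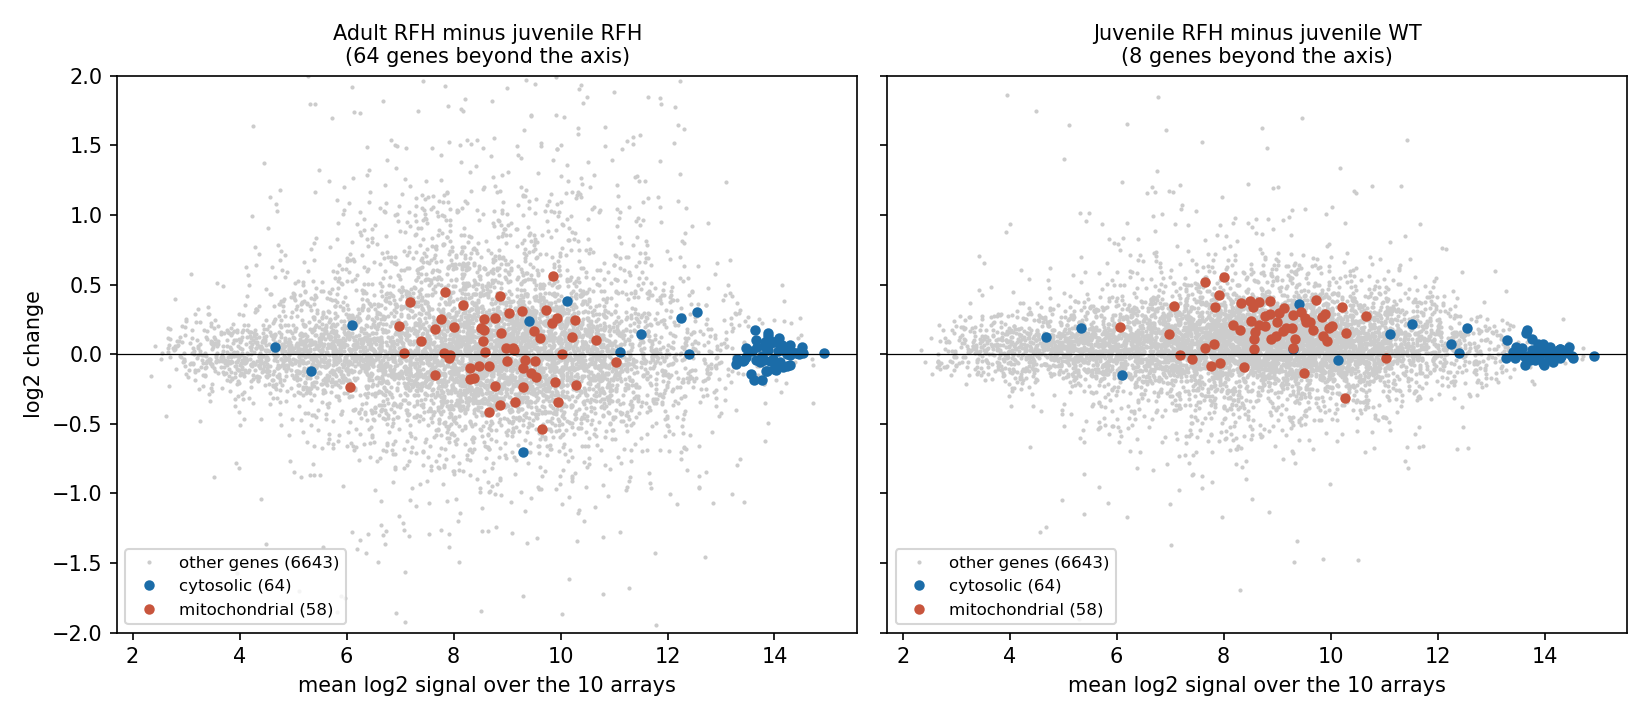
Log2 change against mean log2 signal over the 10 arrays in adult against juvenile RFH (left) and in juvenile RFH against WT (right); grey points are other genes, blue points the 64 cytosolic and red points the 58 mitochondrial members. Most cytosolic members form a narrow band near 0 to the right of 12 in both comparisons, while the mitochondrial members lie mostly above 0 in the second, with a median of 0.20.

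Confidence intervals of the cytosolic members were narrow, on signals mostly near the top of the scale. For 58 of the 64 cytosolic members (90.6%) the 95% confidence interval of the adult minus juvenile RFH change lay within 0.5 on either side of 0, against 52.3% of all genes and 34 of the 58 mitochondrial members. RPS6, the small-subunit protein phosphorylated by the S6 kinases, was at 13.78, 13.84 and 13.82 in juvenile RFH and at 13.84, 13.76, 13.73 and 13.76 in adult RFH. These arrays overlapped, and the change was -0.04 with a 95% interval from -0.20 to 0.12. RPLP0, a stalk protein often used as a reference gene, was at 14.30, 14.33 and 14.37 in juvenile RFH and at 14.34, 14.28, 14.23 and 14.19 in adult RFH. Its groups overlapped too, with a change of -0.08 and an interval from -0.24 to 0.09. The other stalk proteins differed by 0.09 (RPLP1) and 0.00 (RPLP2), and neither was called. RPSA, also known as the laminin receptor, differed by -0.05 without a call. RPL5 and RPL11, which can bind the p53 regulator MDM2 outside the ribosome, differed by -0.06 and 0.07, and RPL3, a protein of the peptidyl transferase centre, by -0.05. RPS27A, made as a fusion with ubiquitin, differed by 0.05. None of these 4 was called.

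RPL37, a zinc-binding large-subunit protein, was the cytosolic member that fell. It had a single probe set, with a mean level of 9.29 against a class median of 13.87. Whether this dimmer probe set follows RPL37 RNA was not tested. Its signal was 9.56, 9.67 and 9.41 in juvenile WT, 9.54, 9.46 and 9.76 in juvenile RFH, and 8.86, 8.48, 8.96 and 9.24 in adult RFH. All 4 adult arrays lay below all 6 juvenile arrays. The change was -0.70 ± 0.16 (SE; limma adjusted p = 0.0151). Without juvenile RFH replicate 3 the call was lost (adjusted p = 0.0683), and it held in each of the other 9 leave-outs.

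RPL7L1, a paralogue of RPL7 that acts in the assembly of the large subunit, was the one that rose. Its signal was 9.95, 10.03 and 10.03 in juvenile WT, 9.91, 9.98 and 9.9998 in juvenile RFH, and 10.40, 10.62, 10.18 and 10.19 in adult RFH. Adult RFH lay above every juvenile array, by 0.38 ± 0.11 over juvenile RFH (SE; limma adjusted p = 0.0404). That call was near the threshold and held in 2 of the 10 leave-outs. It was lost without adult replicate 1 or 2 (adjusted p = 0.0768 and 0.0631), without juvenile RFH replicate 1, 2 or 3 (0.128, 0.0877 and 0.0928), and on leaving out WT replicate 1, 2 or 3 in turn (0.0614, 0.0642 and 0.0636). Quantile normalization (0.0572) and the fit of adult and juvenile RFH arrays alone (0.1002) also ended it. RPL7 itself differed by -0.12 and was not called.

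The cytosolic class also holds 6 members that are not standard ribosomal proteins in the strict sense: the paralogues RPL7L1, RPL22L1, RPL26L1, RPL36AL and RPS27L, and RPS19BP1, which encodes an RPS19-binding protein. They were set apart after their values had been seen. All 6 had a difference above 0 in adult RFH (against 52.6% of all genes), with a median of 0.25, though RPL7L1 alone was called. In juvenile RFH against WT 5 of the 6 were above 0 (83.3%, against 65.6% of all genes), with a median of 0.17. There 4 were higher without overlap (66.7%, against 26.3% of all genes) and none was called. RPL22L1 was at 12.30, 12.33 and 12.25 in juvenile WT, at 12.35, 12.51 and 12.59 in juvenile RFH, and at 13.20, 12.90, 12.48 and 12.56 in adult RFH. Adult replicates 1 and 2 were the highest and replicates 3 and 4 fell within the juvenile RFH range, so that the change of 0.30 was not called (adjusted p = 0.218). Its parent RPL22 differed by 0.06. RPS27L, a p53-responsive relative of RPS27, differed by 0.15 against 0.08 for RPS27, and RPL26L1 by 0.01 against 0.21 for the dim RPL26 probe set. RPL36AL differed by 0.26 and RPS19BP1 by 0.24. Over the other 58 cytosolic members none rose and RPL37 fell, and over the 56 members brighter than 12 none was called, with 0 at an unadjusted p under 0.05. The difference between the 6 and the rest was not tested.

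**Figure D3:**
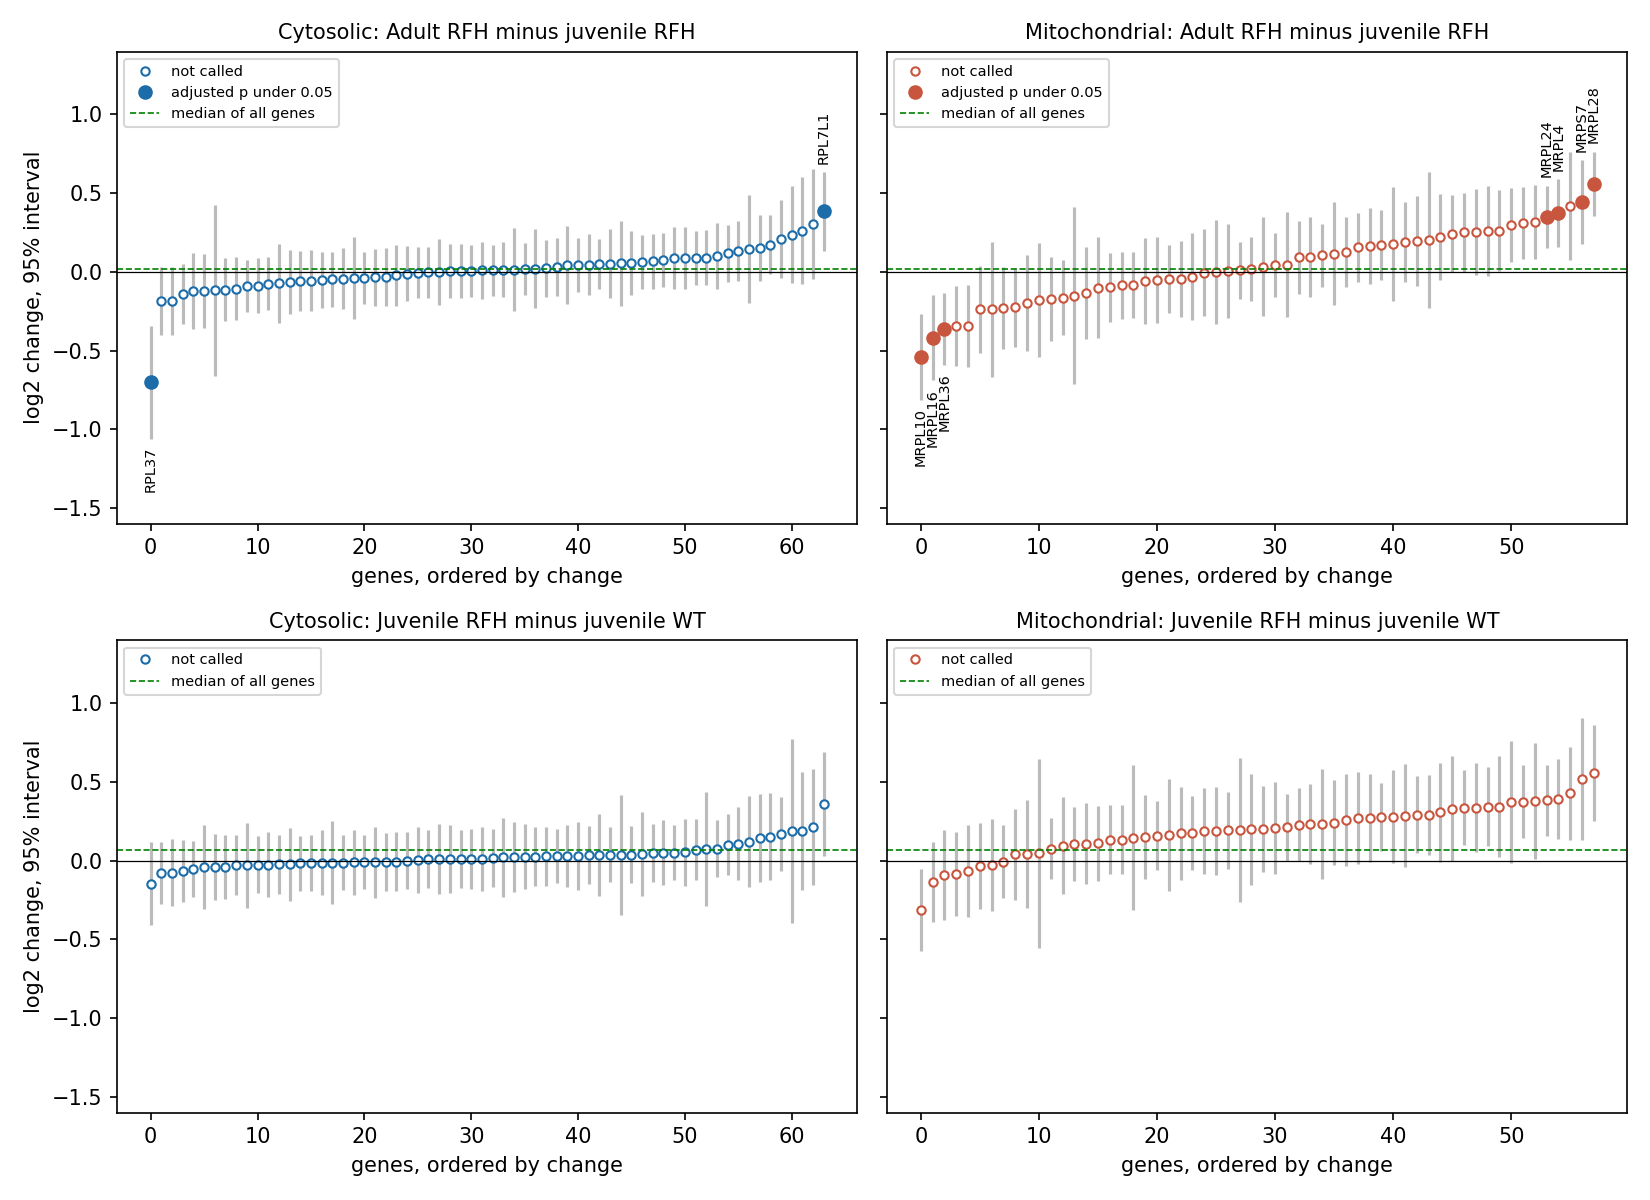
Log2 change of every member, ordered by size within each class, in adult against juvenile RFH (top) and in juvenile RFH against WT (bottom); bars are 95% confidence intervals, filled points are called members and the dashed line is the median of all genes. In the first comparison 2 cytosolic and 7 mitochondrial members are called, and in the second none is called although 50 of 58 mitochondrial members lie above 0.

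Among mitochondrial members, MRPL28, a large-subunit protein, rose with the smallest p in the set. Its signal was 9.47, 9.62 and 9.52 in juvenile WT, 9.69, 9.64 and 9.68 in juvenile RFH, and 10.36, 10.14, 10.33 and 10.09 in adult RFH. The 4 adult arrays were all above the juvenile ones. The change was 0.56 ± 0.09 (SE; limma adjusted p = 0.0033), and the call held in all 10 leave-outs and in the 9 other fits. Its fold of 1.47 is below the added threshold of 1.5-fold, which no mitochondrial member passed.

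MRPS7, a small-subunit protein, was at 7.44, 7.42 and 7.41 in juvenile WT, 7.67, 7.87 and 7.74 in juvenile RFH, and 8.35, 8.35, 8.24 and 7.88 in adult RFH. Its 3 groups formed ascending, separate ranges, with adult replicate 4 only just above juvenile RFH. The change between adult and juvenile RFH was 0.44 ± 0.12 (limma adjusted p = 0.029). The call was lost without adult replicate 1 or 2 (adjusted p = 0.0626 and 0.0637) or juvenile RFH replicate 1 or 3 (0.108 and 0.0906), and when only the adult and juvenile RFH arrays were fitted (0.0802).

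MRPL4 and MRPL24, both of the large subunit, also rose. MRPL4 was at 6.98, 7.004 and 7.13 in juvenile WT, 6.92, 7.11 and 7.06 in juvenile RFH, and 7.59, 7.40, 7.30 and 7.33 in adult RFH, a change of 0.37 ± 0.10 (adjusted p = 0.0262). The juvenile groups overlapped and all adult arrays were higher. MRPL24 was at 7.89, 7.81 and 7.95 in juvenile WT, 8.16, 8.06 and 8.06 in juvenile RFH, and 8.52, 8.54, 8.43 and 8.29 in adult RFH, a change of 0.35 ± 0.09 (adjusted p = 0.0229). Its ranges were separate in all 3 groups. The MRPL4 call was lost without juvenile RFH replicate 1 or 3 (adjusted p = 0.105 and 0.0692), and the MRPL24 call without juvenile RFH replicate 2 or 3 (0.071 and 0.0805). Both were also lost when only the adult and juvenile RFH arrays were fitted (0.0691 and 0.0652).

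Of the 3 mitochondrial members that fell, MRPL10, a stalk protein of the large subunit, changed most. It was at 9.80, 9.75 and 9.73 in juvenile WT, 9.70, 10.15 and 9.94 in juvenile RFH, and 9.44, 9.37, 9.58 and 9.18 in adult RFH. Adult RFH lay below every juvenile array, and the change was -0.54 ± 0.12 (SE; limma adjusted p = 0.0147). The call was lost without juvenile RFH replicate 2 or 3 (adjusted p = 0.0551 and 0.053).

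MRPL16 and MRPL36 are large-subunit proteins whose fall was close to the threshold. MRPL16 was at 8.66, 8.66 and 8.74 in juvenile WT, 8.85, 9.01 and 8.83 in juvenile RFH, and 8.75, 8.52, 8.19 and 8.45 in adult RFH, a change of -0.42 ± 0.12 (adjusted p = 0.0404). MRPL36 was at 8.78, 8.79 and 8.85 in juvenile WT, 9.01, 9.21 and 9.08 in juvenile RFH, and 8.90, 8.85, 8.57 and 8.62 in adult RFH, a change of -0.36 ± 0.10 (adjusted p = 0.0356). In both genes juvenile RFH was the highest group, and adult RFH overlapped juvenile WT. The MRPL16 call held in 1 of 10 leave-outs, that of adult replicate 1. It was lost without adult replicate 2, 3 or 4 (adjusted p = 0.0622, 0.0517 and 0.0669), juvenile RFH replicate 1, 2 or 3 (0.0906, 0.127 and 0.0842) and juvenile WT replicate 1, 2 or 3 (0.0626, 0.064 and 0.062). The MRPL36 call held in 2 of 10. It was lost without adult replicate 3 or 4 (0.0565 and 0.0695), juvenile RFH replicate 1, 2 or 3 (0.0611, 0.121 and 0.0896) and juvenile WT replicate 1, 2 or 3 (0.0564, 0.0584 and 0.056). Centring the arrays on their medians ended both calls (adjusted p = 0.0576 for MRPL16 and 0.0589 for MRPL36), as did cyclic loess (0.0626 and 0.0562) and the fit of adult and juvenile RFH arrays alone (0.0995 and 0.0931).

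**Figure D4:**
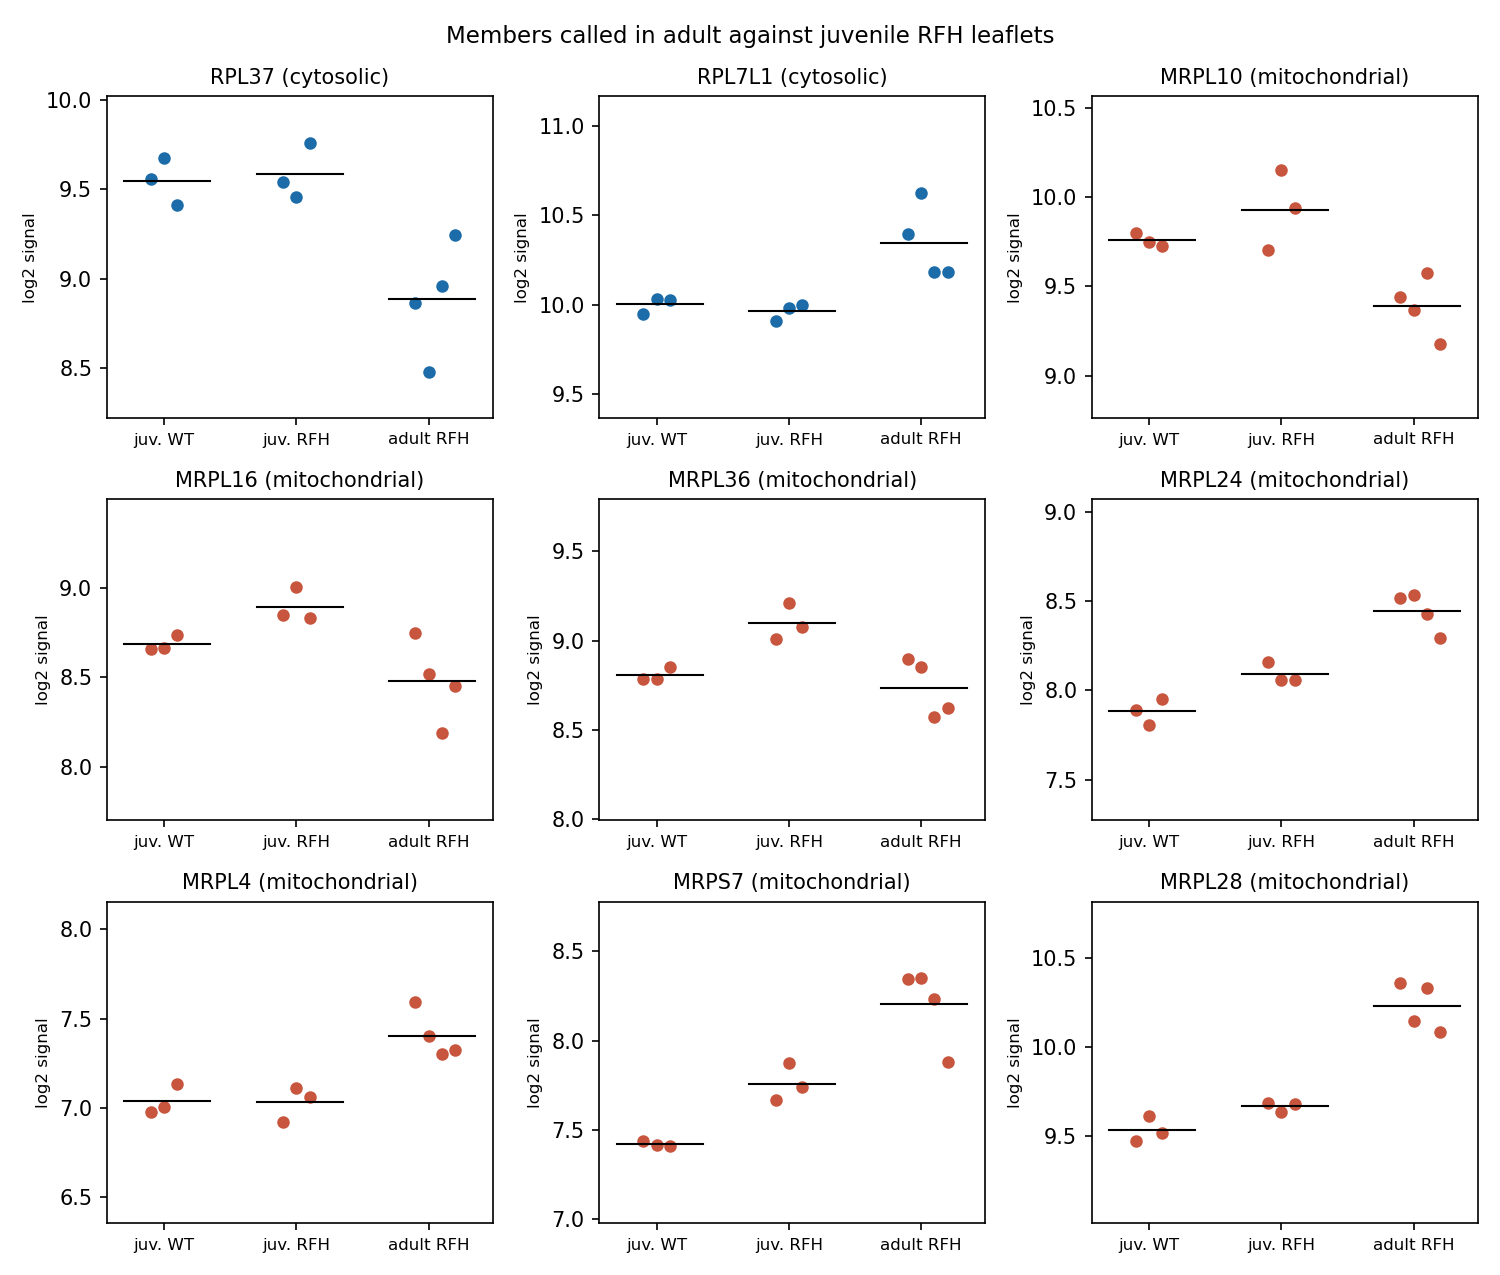
Log2 signal of the 9 members called in adult against juvenile RFH, by array and group; points are arrays and black lines are group means. RPL37 and MRPL10 lie below both juvenile groups in all 4 adult arrays, MRPL28 lies above them, and MRPL16 and MRPL36 are highest in juvenile RFH.

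Most mitochondrial calls were in the large subunit, where they ran in both directions. Of 36 large-subunit members 3 rose and 3 fell (16.7% called), with a median change of -0.04. Of 22 small-subunit members MRPS7 alone was called (4.55%), and the median was 0.16. Subunits were assigned by symbol alone, and the difference between them was not tested. Some members that missed the threshold had differences of the same size. MRPL3, a large-subunit protein, was at 10.15, 10.12 and 10.20 in juvenile RFH and at 10.07, 9.80, 9.56 and 9.80 in adult RFH, without overlap (change -0.35, adjusted p = 0.0649). MRPL1, another large-subunit protein, was at 8.59, 8.96 and 8.87 in juvenile RFH and at 9.42, 9.52, 8.97 and 8.99 in adult RFH. All of its adult arrays lay above juvenile RFH, 2 of them barely, and the change of 0.42 was not called (adjusted p = 0.0915). MRPS12, a small-subunit protein near the decoding site, differed by 0.09.

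Juvenile RFH against juvenile WT asked how young hypercholesterolaemic leaflets differ from those of wild-type swine. Only 0.133% of all genes were called in this comparison (9 genes; 0.0887% up and 0.0443% down), and no member of either class was called. At an unadjusted p under 0.05 there were 17 mitochondrial members and 1 cytosolic member (RPS19BP1), against 15.1% of all genes. Mitochondrial changes were nevertheless mostly of one sign: 50 of 58 were above 0 (86.2%, against 65.6% of all genes), with a median of 0.20 against 0.07 over all genes. The arrays of the groups did not overlap, with juvenile RFH higher, in 37 of the 58 (63.8%), against 26.3% of all genes, and with juvenile RFH lower in 1 (MRPS21), against 9.53% of all genes. Mitochondrial members tended to move together within an array, so these counts are not of independent genes. In juvenile RFH replicates 1, 2 and 3, 8, 46 and 38 of the 58 lay above their group mean. Over all genes these shares were 38.4%, 57.8% and 56.9%. In the cytosolic class 39 of 64 were above 0, the median was 0.01, and 7 members were higher without overlap (10.9%).

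The mitochondrial shift kept its sign under the alternatives tried, single arrays left out included. The median over the 58 stood above that over all genes by 0.11 to 0.18 across them, with 47 to 54 members above 0. Without juvenile RFH replicate 2, the array with high cardiac muscle markers, the median was 0.16, 47 members were above 0, and 38 were higher without overlap (65.5%, against 30.3% of all genes). Juvenile RFH replicate 3, which stayed in, had the next highest cardiac marker mean, 5.79. With replicate 3 left out instead, the median was 0.19 and 48 members were above 0. Replicates 2 and 3 were not left out together. Other marker lists also moved with the mitochondrial shift. The macrophage marker mean was 10.04 to 10.05 in juvenile RFH and 9.72 to 9.78 in juvenile WT, the endothelial mean (5 of 6 measured, KDR below 7 on every array) was 8.64 to 9.001 against 8.12 to 8.62, and the erythrocyte mean (3 of 4 measured) was 7.56 to 8.48 against 6.83 to 7.34. The valve interstitial mean was lower, 12.06 to 12.14 in juvenile RFH against 12.19 to 12.26 in juvenile WT. Not every marker followed its list. In group means of juvenile WT and juvenile RFH, HBB was 9.87 and 9.65, LAPTM5 11.03 and 10.78, KDR 3.95 and 3.94, and COL3A1 7.33 and 7.34. The part of these markers in the mitochondrial shift was not tested.

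MRPL58, a peptidyl-tRNA hydrolase built into the large mitochondrial subunit, had the smallest p of the members. It was at 7.39, 7.66 and 7.57 in juvenile WT, 8.0008, 8.17 and 8.13 in juvenile RFH, and 8.46, 8.52, 8.16 and 8.05 in adult RFH. Juvenile RFH lay above every WT array, by 0.56 ± 0.14 (SE; limma adjusted p = 0.146). MRPS11, a small-subunit protein, was at 8.17, 8.32 and 8.25 in juvenile WT and at 8.65, 8.62 and 8.63 in juvenile RFH, again apart, with a change of 0.38 ± 0.10 (adjusted p = 0.168). It was at 8.62, 8.70, 8.51 and 8.37 in adult RFH, a range around that of juvenile RFH. MRPS28, also of the small subunit and one of the widest-ranging mitochondrial members, was at 7.28, 7.17 and 7.23 in juvenile WT, 7.71, 7.80 and 7.73 in juvenile RFH, and 8.34, 8.10, 7.63 and 7.61 in adult RFH. Its juvenile groups were tight and separate, while its adult arrays reached from below to above juvenile RFH. When only the 6 juvenile arrays were fitted, so that the wider spread of adult RFH no longer entered, 4 mitochondrial members rose: MRPS28 (adjusted p = 0.0218), MRPL58 (0.03), MRPL40 (0.0404) and MRPS11 (0.041). In that fit 4.82% of all genes were called.

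One mitochondrial member ran the other way. MRPS21, a small-subunit protein named here after its values were seen, was at 10.38, 10.44 and 10.35 in juvenile WT, 9.97, 10.16 and 10.12 in juvenile RFH, and 10.49, 10.41, 10.05 and 10.35 in adult RFH. It was lower in juvenile RFH without overlap, by a change of -0.31 that was not called. In the cytosolic class RPS19BP1 had the smallest p (change 0.36, adjusted p = 0.351), followed by RPL27, a large-subunit protein (change 0.17, adjusted p = 0.554).

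Both comparisons use the same juvenile RFH arrays, so the values of those arrays enter the 2 comparisons with opposite signs. MRPL16 and MRPL36 differed by 0.21 and 0.29 from juvenile WT to juvenile RFH and by -0.42 and -0.36 from juvenile to adult RFH.

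Second probe sets of the same genes often differed in sign from the brightest in adult against juvenile RFH, and less often in juvenile RFH against WT. In 38 members with several probe sets there were 51 further ones, 23 of them with a mean level below 7. In adult against juvenile RFH, 12 of 32 cytosolic and 12 of 19 mitochondrial ones had the sign of the brightest. In juvenile RFH against WT, 19 of 32 cytosolic and 15 of 19 mitochondrial ones had it. No called member had a further probe set, so second probe sets could neither back nor oppose a call. Of the 51, 2 were called where the brightest was not: a dim second probe set of RPS25 (mean level 3.95, change -0.39, adjusted p = 0.031) and a second probe set of RPS27 (mean level 8.66, change -0.61, adjusted p = 0.022). Ribosomal protein genes have many processed pseudogene copies, and signals of near-identical copies cannot be separated on this array.

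Companion lists of genes that serve the ribosomes were counted in the same way in adult against juvenile RFH. Of 48 cytosolic translation factors 3 rose and 2 fell (median -0.01). EIF4A1, the helicase of the cap-binding complex, rose by 1.09 (adjusted p = 0.000886), and EIF4EBP2, a repressor of cap-dependent initiation, fell by 0.93 (adjusted p = 0.0083). Of 82 ribosome biogenesis genes 14 rose and FTSJ3 fell, with a median of 0.25 and 68 above 0 (82.9%, against 52.6% of all genes). Those that rose included SBDS, which readies the large subunit for joining (0.53), GAR1 of the box H/ACA particles (0.48) and the nucleolar protein LYAR (0.48). Their share of calls, 18.3%, was close to the 19.3% of all genes. Of 35 genes of mitochondrial translation none rose and 4 fell, among them the rRNA methyltransferase MRM2 (-0.54), the RNA-binding protein FASTKD2 (-0.54) and the inner membrane insertase OXA1L (-0.33). Of 14 genes of mTOR and S6 kinase signalling 3 rose (PRKAA1, RPS6KA3 and RPS6KA1) and 2 fell (AKT1S1 and SESN1). Of 57 oxidative phosphorylation subunits NDUFS1, of complex I, fell and none rose (median 0.03).

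In juvenile RFH against juvenile WT no gene of these 5 lists was called. Oxidative phosphorylation subunits were nevertheless above 0 in 55 of 57 (96.5%, against 65.6% of all genes), with a median of 0.21. Of these subunits 45 were higher without overlap (78.9%, against 26.3% of all genes). For the mitochondrial ribosomal proteins the median was 0.20 and 63.8% were higher without overlap. Without juvenile RFH replicate 2 the median of the oxidative phosphorylation subunits was 0.18, and 53 were above 0 (93%, against 63.3% of all genes). Ribosome biogenesis genes had a median of 0.17, mitochondrial translation genes one of 0.10, and cytosolic translation factors one of 0.01.

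Array controls gave a measure of RNA and labelling quality. The 3' minus 5' signal difference was 2.24 ± 0.45 (SD, n = 4) in the adults, 2.25 ± 0.14 (n = 3) in the young RFH arrays and 2.09 ± 0.09 (n = 3) in those of WT (exact two-sided permutation p = 0.943 and 0.2). The poly-A spike controls averaged 7.12 in the adults, against 6.32 in the young RFH arrays and 6.54 in those of WT (exact permutation p = 0.0286 and 0.1, the smallest these designs allow, both 0.156 after adjustment over 14 tests). These spike controls did not overlap between adult RFH (6.98 to 7.31) and juvenile RFH (6.29 to 6.34). A difference in processing between those groups cannot be told apart from one of age. The part of the controls in the member results was not tested. With the 3' minus 5' difference as a covariate, 4 mitochondrial members rose and 4 fell in adult RFH.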

How the data were processed

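Total RNA from aortic valve leaflets was labelled with biotin and hybridised to 10 arrays. The log2 values were used as deposited by the authors. The submitters' processing notes name R 2.15.2, with background correction, normalization and genome build not given in the sources used here, so no coordinates or sequences are printed. The members, the companion lists and the marker lists were chosen with earlier results of these data known. Of 24123 probe sets, 124 controls were left out, and 23999 were fitted with limma 3.58.1 (R 4.3.3; lmFit, eBayes) on all 10 arrays in 3 groups, with 7 residual and 3.57 prior degrees of freedom. Adjustment was Benjamini-Hochberg over all of them. Names came from the platform annotation: 10069 probe sets had 1 symbol, giving 6765 genes by brightest probe set. The members had 173 probe sets; 14 ribosomal probe sets with several symbols were left out. Gene IDs of 121 of the 122 members matched RefSeq's table (Sscrofa11.1), all with the same symbol. Members named in the text were the called ones, the 2 of smallest p in a class without calls, the brightest, dimmest and most variable, a fixed list (RPS3 and MRPL12 of it were not measured) and paralogues with their parents; from each companion list, up to 3 called genes per direction with the smallest p. Alternatives were other normalizations, a level filter, a fit of 2 groups, a trended robust prior, a replicate block, a 3' minus 5' covariate, averaged probe sets per gene, an added 1.5-fold threshold and leaving out each array. The fits were tested on simulated data. Figures were drawn with matplotlib 3.10.9. The number of arrays limits the precision.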

Additional observations from a re-analysis of the deposited data

Results flagged for a closer look

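The ribosomal RNA control probe sets of the array lie outside the protein genes described above. Of 52 sets of 4 adult RFH arrays checked for a sample far from the others, 2 had one, where chance gives about 1 in 20. Adult replicate 3 had the highest signal of the AFFX-SSC-18SrRNA probe set (9.45, the others from 8.10 to 8.28) and the lowest of AFFX-Ss_18SrRNA (12.49, the others from 13.23 to 13.35), and in both the gap to the nearest array was 0.869 of the range, above Dixon's 95% critical value.

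Between adult and juvenile RFH, without overlap of the arrays, AFFX-SSC-18SrRNA differed by 1.15 (exact permutation p = 0.0286, the smallest possible), AFFX-Ss_18SrRNA by -0.584, and the pair of 28S probe sets by -0.389 and -0.655 (exact permutation p = 0.0571 for each of the last 3). The 18S probe sets thus differed in opposite directions. Between juvenile RFH and juvenile WT, the 28S probe sets differed by 0.0617 and 0.0459 and the 5S probe set by 0.415 (exact permutation p = 0.1 for each, the smallest possible). All of these have an adjusted p of 0.156 over 14 tests.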

How the results depend on the processing

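No called member changed sign under the alternatives run; the cause of each change below was not tested. The median changes near 0 did cross it: in adult against juvenile RFH the cytosolic median ran from -0.02 to 0.04 and the mitochondrial one from -0.01 to 0.08, and in juvenile RFH against WT the cytosolic median from -0.02 to 0.04, while the mitochondrial one stayed at 0.16 to 0.26. In adult against juvenile RFH, cytosolic members that rose numbered 1, and 0 with quantile normalization, with only the 2 groups fitted and with an added 1.5-fold threshold; those that fell numbered 1, and 2 with averaged probe sets per gene. Mitochondrial members that rose numbered 4, and 1 with 2 groups fitted and 0 with the 1.5-fold threshold; those that fell numbered 3, and 1 with median centring, cyclic loess or 2 groups fitted, and 0 with the 1.5-fold threshold. Leaving out each array gave 0 to 1 cytosolic member up and 0 to 1 down, and 1 to 8 mitochondrial members up and 0 to 4 down: all mitochondrial calls together numbered 1 without juvenile RFH replicate 3, 3 without replicate 1 and 4 without replicate 2, and 8 rose without adult replicate 4, 7 without adult replicate 3. In juvenile RFH against WT, 4 mitochondrial members rose with 2 groups fitted and 0 otherwise. Genes called over the whole array numbered 1305, or 756 with 2 groups fitted, in the first comparison, and 9 or 326 in the second. The cytosolic minus mitochondrial difference was 5.08, 4.89 and 4.88 (juvenile WT, juvenile RFH, adult RFH) as medians over members, and 3.52, 3.39 and 3.37 with averaged probe sets.

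Replicate numbers did not pair the arrays: deviations of same-numbered arrays correlated from -0.156 to 0.185. With the replicate block, in which adult replicate 4 has no partner and drops out, 1 mitochondrial member fell, 1231 genes were called, and the calls of MRPL4 (adjusted p = 0.0625), MRPL16 (0.0889) and MRPL36 (0.103) were not made.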
